A study of Drosophila mauritiana and Drosophila melanogaster and Drosophila simulans with 12 samples.

Results

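The genes described here are those whose *D. melanogaster* reference model lost more than 50 % of its length when the gene sets of 3 *Drosophila* species were cut to the stretches that all of them share. A gene was a member if it was counted on both the direct and the reciprocal models of *D. melanogaster* and *D. mauritiana* and its reciprocal *D. melanogaster* model was shorter than 0.5 times the direct one. This gave 108 of 13317 genes (0.811 %). The rule used model lengths only and no expression value. A symbol was found for 105 of them in the names table and for 2 more (*CG17341* and *laccase2*) in the study's supplement, while FBgn0038052 is given by its ID.

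The libraries came from eye-antennal imaginal discs, the larval epithelia that form the compound eye, the antenna and much of the head capsule, dissected from female larvae of the third instar 120 h after egg laying and pooled within each library. *D. melanogaster* was the OregonR strain (libraries A, B and C) and was set against *D. mauritiana* TAM16 (libraries A, B and C), both as 50 bp single-end reads. *D. simulans* was the *yellow vermillion forked* (YVF) strain (libraries A, B and C) and was set against other *D. mauritiana* TAM16 libraries (D, E and F), both as 100 bp paired-end reads that the authors split into 50 bp reads. Each species is 1 strain, none was treated, and the YVF strain carries visible marker mutations, so species and strain cannot be told apart. Each group has 3 biological replicates.

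A gene model is the coding sequence to which the reads of a species are mapped. In the direct re-annotation, *D. melanogaster* reads were mapped to the complete longest coding sequence of each gene, and reads of the other species to whatever part of it an aligner could find in their own genome. In the reciprocal re-annotation the models were passed from species to species until each held only what was also found in the others. For a member this means that the *D. melanogaster* reads could be counted on a part of the gene only (the shortened or reciprocal model) rather than on the whole of it (the full or direct model). Read counts grow with the length of the model, the abundance of the transcript and the depth of the library. In whole discs, fewer cells of a type and less RNA per cell cannot be told apart.

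Members were long genes. Their direct *D. melanogaster* models had a median of 2242.5 nt (range 234 to 68850 nt), against 1200 nt for the other genes. The reciprocal models had a median of 774.5 nt (61 to 30033 nt). The share of length kept ran from 4.31 % to 49.6 % with a median of 38.94 %. By comparison, 12578 of the 13317 genes (94.5 %) kept at least 90 % of their length, and the 108 members accounted for 374980 of the 921198 nt lost over all genes (40.7 %). The shortest remnants were those of *Muc12Ea*, a mucin (4.31 % of 9810 nt), *Nipped-A*, the large scaffold subunit of the SAGA and Tip60 histone acetyltransferase complexes (4.68 % of 11412 nt), *Muc14A*, another mucin (5.58 % of 48672 nt), and *Gr98a*, a gustatory receptor (9.52 % of 1176 nt). Just inside the limit lay *CG42326* (49.6 %), *CG4892* (49.39 %) and the ionotropic receptor *Ir67b* (49.33 %), and just outside it *l(3)mbn* (50.1 %), *CG43327* (50.11 %) and *CG11588* (50.18 %).

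The kept stretch was a single block in 64 members and was spread over several pieces, up to 10, in the other 44. It reached the 3′ end of the coding sequence (within 30 nt) but not the 5′ end in 49 members, the 5′ end but not the 3′ end in 33, and neither end in 26. The 10 pieces belonged to *dpy*, which encodes a giant extracellular matrix protein that anchors epithelia to cuticle and whose 30033 nt were left of the longest direct model of the set (68850 nt). *Nipped-A* kept nucleotides 1083 to 1616 of its coding sequence. *gl* (glass), the zinc finger transcription factor needed for photoreceptor development, kept nucleotides 1 to 986 of 2040.

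**Figure D1:**
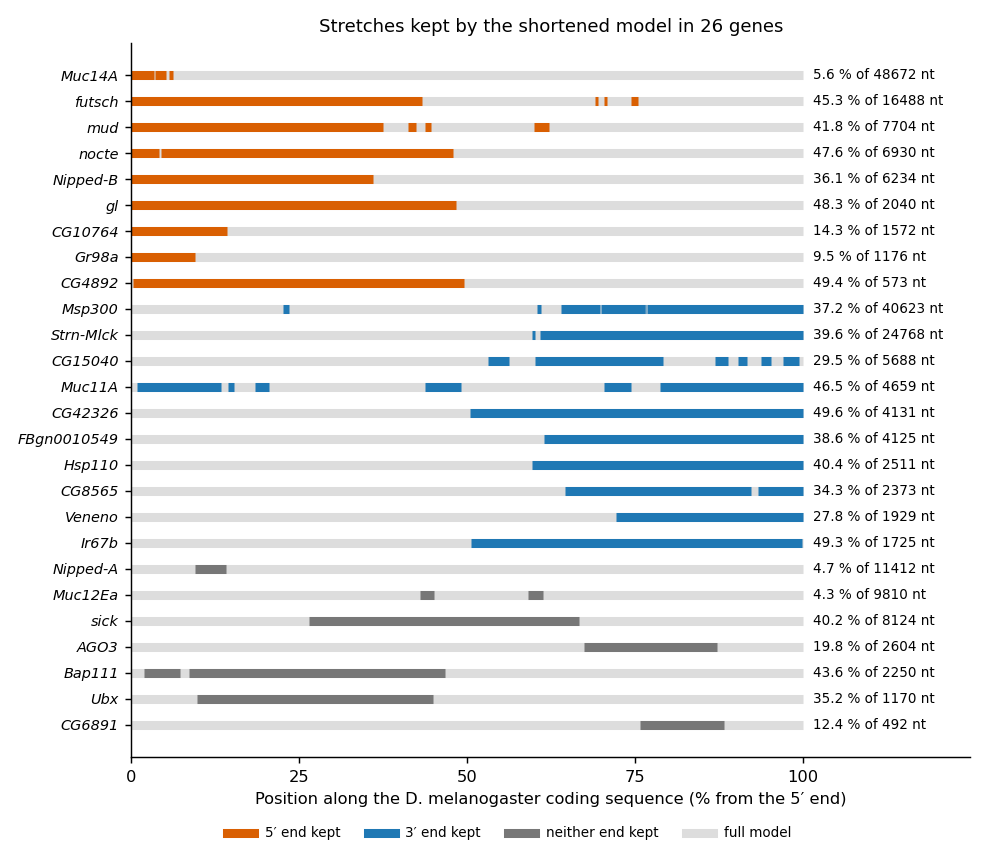
Stretches of the *D. melanogaster* coding sequence that the reciprocal model kept in the 26 named members, drawn as position along the direct model in percent from the 5′ end and coloured by the end that was kept (orange 5′, blue 3′, dark grey neither, light grey the full model). The kept share of the direct length is printed beside each bar and runs from 4.3 % in *Muc12Ea* to 49.6 % in *CG42326*.

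Members lay on every major arm, with the highest share on the X chromosome, where 37 of 1969 genes (1.88 %) were members. The shares were 0.88 % on 3L (23 genes), 0.7 % on 2L (17), 0.63 % on 2R (17) and 0.34 % on 3R (11). None of the 77 genes of chromosome 4 was a member, and 3 members could not be placed. Coding introns longer than 20000 nt, the limit that the authors set for the aligner, occurred in 14 of the 101 members with a matching transcript (13.9 %) and in 226 of 12882 genes in all (1.75 %). The cut ended at an exon junction in 18 members, of which 5 had an intron over the limit at that junction. The published gene set, which the study also used, held 44 of the 108 members (40.7 %), against 85.9 % of all genes, and its *D. mauritiana* model was shorter than 50 % of the *D. melanogaster* one in 21 of these and at least 90 % of it in 11.

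By function the members were mixed. Mucins, secreted proteins with long serine- and threonine-rich repeats that coat epithelia, formed the largest family: 8 of the 13 genes measured under a Muc symbol were members (*Muc11A*, *Muc12Ea*, *Muc14A*, *Muc30E*, *Muc68Ca*, *Muc68D*, *Muc68E* and *Muc96D*). Other long proteins were *dpy*, *Msp300* (a giant nesprin that links the nucleus to the cytoskeleton), *Strn-Mlck* (a titin-like kinase), *futsch* (the MAP1B homologue of neuronal microtubules), *Ank2* (an ankyrin of the axonal membrane skeleton) and *hiw* (a ubiquitin ligase of synapse growth). Regulators of chromatin and transcription included *Nipped-A*, *Nipped-B* (the cohesin loader), *Bap111* (a subunit of the Brahma remodelling complex), *Gug* and *Smr* (corepressors) and *sd* (the DNA-binding partner of Yorkie). *Nipped-A*, *Nipped-B* and *lt* (a vesicle tethering subunit) are known to lie in pericentromeric heterochromatin in *D. melanogaster*.

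Members made up 0.811 % of all genes, and lists of this size would hold few at that rate. Of the 12 retinal determination genes none was a member, and of the 19 measured eye differentiation genes only *gl* was. *Ubx* was the 1 member among 8 Hox genes. The 61 homeobox and other transcription factor genes of a further list held 1 (*sd*), the 51 ion channel and synaptic genes 2 (*rut*, an adenylyl cyclase of memory, and *nAChRalpha4*), the 17 sarcomere genes 1 (*Msp300*), and the 50 axon guidance and adhesion genes and the 5 measured axonemal dyneins none. These counts describe the lists and were not tested.

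Total counts ranged from 17170747 to 34381281 per library in the single-end tables and from 121468882 to 162677150 in the split paired-end tables. The summed level of 12 eye-antennal disc marker genes was similar in all libraries (1430 to 1949 CPM, counts scaled to the total of the library). Fat body and hemocyte markers varied more between the *D. melanogaster* libraries: the 3 fat body genes summed to 3457, 93.7 and 3021 CPM in *D. melanogaster* A, B and C, against 376 to 1567 CPM in *D. mauritiana* A to C, and the 4 hemocyte genes to 1223, 194 and 1046 CPM, against 242 to 405 CPM. The 2 salivary gland genes summed to 159, 97.5 and 122 CPM in *D. melanogaster* A, B and C, against 123, 195 and 31.9 CPM in *D. mauritiana* A, B and C. The 3 glial genes summed to 188 to 235 CPM and the 3 muscle genes to 725 to 2851 CPM over the 12 libraries. The part of this carry-over in the results below was not tested, except where a value is given.

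The members ranged widely in their counts. On the direct models 35 of them averaged at least 1000 counts in *D. melanogaster* and 64 at least 50, while 31 averaged under 10. Their median of 130.7 counts lay below that of all genes (307.7), whose shares over these limits were not counted. After the filter on low counts, 68 members could be tested between *D. melanogaster* and *D. mauritiana* on both models, 10 on the direct models only and 30 on neither. The last 30 include *Ubx*, with 3, 1 and 2 counts in *D. melanogaster* on the direct model, the ionotropic and gustatory receptor genes *Ir67b*, *Gr98a* and *Gr93d*, and *Muc68D*. The 68 are therefore not all members.

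Together the members held 0.296, 0.204 and 0.268 % of the counts in *D. melanogaster* A, B and C on the reciprocal models, against 0.178, 0.207 and 0.284 % in *D. mauritiana*. On the direct models they held 0.733, 0.616 and 0.662 % in *D. melanogaster*, against 0.302, 0.356 and 0.446 % in *D. mauritiana*. The libraries of the species overlapped on the shortened models (means 0.256 ± 0.047 % and 0.223 ± 0.055 %, SD, n = 3 each, exact permutation test, two-sided p = 0.5). They did not overlap on the direct ones (0.67 ± 0.059 % and 0.368 ± 0.073 %, p = 0.1, the smallest that this exact permutation test can give). Members were chosen for a long direct model in *D. melanogaster*, so the higher *D. melanogaster* share on the direct models is partly built in. The test on the direct models cannot separate model length from expression, and no expression difference is read from it.

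The counts that a member kept did not simply follow the length it kept. For 59 members with at least 50 direct counts in every *D. melanogaster* library, the share of counts kept was divided by the share of length kept, so that 1 means equal losses. The median over these members was 1.183 ± 0.0488 (SD, n = 3 libraries). Members that kept their 3′ end had a median of 1.716 ± 0.151 (26 members), those that kept the 5′ end 0.611 ± 0.18 (16 members) and those that kept neither 0.944 ± 0.051 (17 members). The order was the same in each *D. melanogaster* library, and library B had both the lowest 5′ value (0.406, against 0.741 in A and 0.687 in C) and the highest 3′ value (1.884, against 1.594 in A and 1.67 in C). The SDs are those of 3 library medians and not the spread among members, which overlapped between the groups. With the 3′ end kept, *laccase2* kept 1.31 % of its counts on 33.5 % of its length. With the 5′ end kept, *eater* kept 70.5 % of its counts on 45.18 % of its length.

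**Figure D2:**
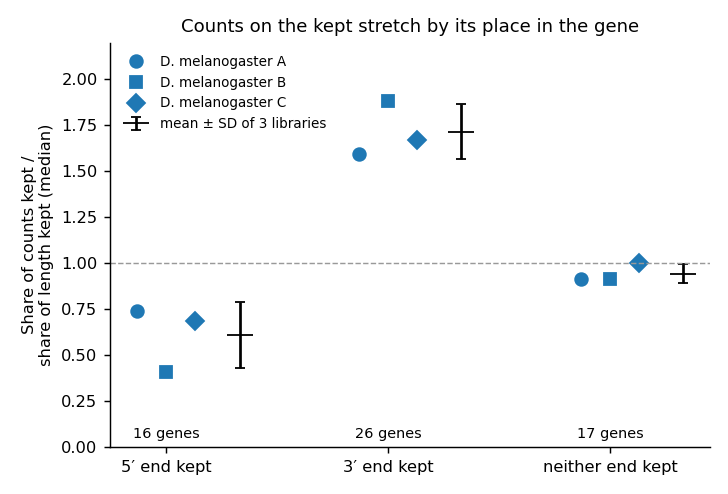
Median over members of the share of counts kept divided by the share of length kept (y axis) in the 3 *D. melanogaster* libraries, by the end of the coding sequence that was kept, with bars for the mean ± SD and a dashed line at 1 for equal losses. The members that kept their 3′ end average 1.716 and those that kept the 5′ end 0.611. The library medians of these groups do not overlap, while single members, which are not drawn, do.

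A part of the members allows the same stretch to be read in both species, since 15 had a *D. mauritiana* direct model of at least 90 % of the *D. melanogaster* length. With enough counts in every library, 4 members remained for each kept end and 4 that kept neither. Where the 5′ end was kept, the medians were 0.779, 0.396 and 0.728 in *D. melanogaster*, against 0.419, 0.457 and 0.701 in the single-end *D. mauritiana* libraries. Where the 3′ end was kept they were 1.596, 1.847 and 1.618 in *D. melanogaster*, against 1.74, 1.68 and 1.327. The species overlapped in both. Where neither end was kept they did not, with 1.214, 1.085 and 1.155 in *D. melanogaster*, against 0.623, 0.691 and 0.951 in the single-end *D. mauritiana* libraries, while the paired-end ones had 1.078, 1.054 and 0.995. These medians of 4 members hung on *CG18259*, which kept 55.4 % of its counts in *D. melanogaster* and 24.6 % in single-end *D. mauritiana*. The species were closer in *CG6891* (19.6 and 19.5 %), *Bap111* (29.8 and 29.8 %) and *Ptpmeg2* (31.35 and 26.97 %). No difference of the whole class is read from them. The paired-end *D. mauritiana* libraries lay nearer to 1, with 0.887 to 0.932 at the 5′ end and 1.109 to 1.18 at the 3′ end. Read type and library were not varied apart from each other in this design.

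Single members showed the range. *gl* kept 48.33 % of its length and 29.1 ± 5.36 % of its *D. melanogaster* counts, against 25.3 ± 5.21 % in single-end and 41.9 ± 0.28 % in paired-end *D. mauritiana* libraries (SD, n = 3 each). *CG6891*, which was cut to 61 of 492 nt (12.4 %), nucleotides 374 to 434 of the coding sequence, kept 19.6 ± 1.38 % of the counts in *D. melanogaster* and 19.5 ± 2.24 % in single-end *D. mauritiana*. Chosen after their values were seen, 2 members that kept their 3′ end lay far from their share of length, in opposite directions. *laccase2*, a cuticle tanning oxidase, kept 33.5 % of its length but 1.31 ± 1.12 % of its counts. *Strn-Mlck* kept 39.56 % of its length and 95.9 ± 1.66 % of its counts. *Muc12Ea* kept 95.4 ± 2.17 % of its counts on 4.31 % of its length. Mucins consist of repeats, and reads from repeats or near-identical copies may be divided between models in ways the tables do not record.

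The comparison of *D. melanogaster* with *D. mauritiana* asks which genes differ in expression between the species, and it gave different answers for the members on the 2 kinds of model. On the reciprocal models 12 of 68 members tested (edgeR, adjusted *p* < 0.05) were differentially expressed, 7 higher in *D. melanogaster* and 5 higher in *D. mauritiana*. Over all genes tested the called share was 18.2 %, with 8.06 % higher in *D. melanogaster* and 10.1 % higher in *D. mauritiana*, so the members stood close to the background. On the direct models 43 of 78 members were called, 39 higher in *D. melanogaster* and 4 higher in *D. mauritiana*, against 19.7 % of all genes tested, 9.12 % and 10.6 % by direction. The median log2-fold change (*D. melanogaster* over *D. mauritiana*) of the members tested was 0.06 on the reciprocal and 1.34 on the direct models, against 0.01 over all genes on either. With the model length entered in the fit, 27 members were called on the direct models, against 1891 of 9825 genes in all. The rule favours genes with a longer direct model in *D. melanogaster*, so the direction of the direct calls is partly built in.

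**Figure D3:**
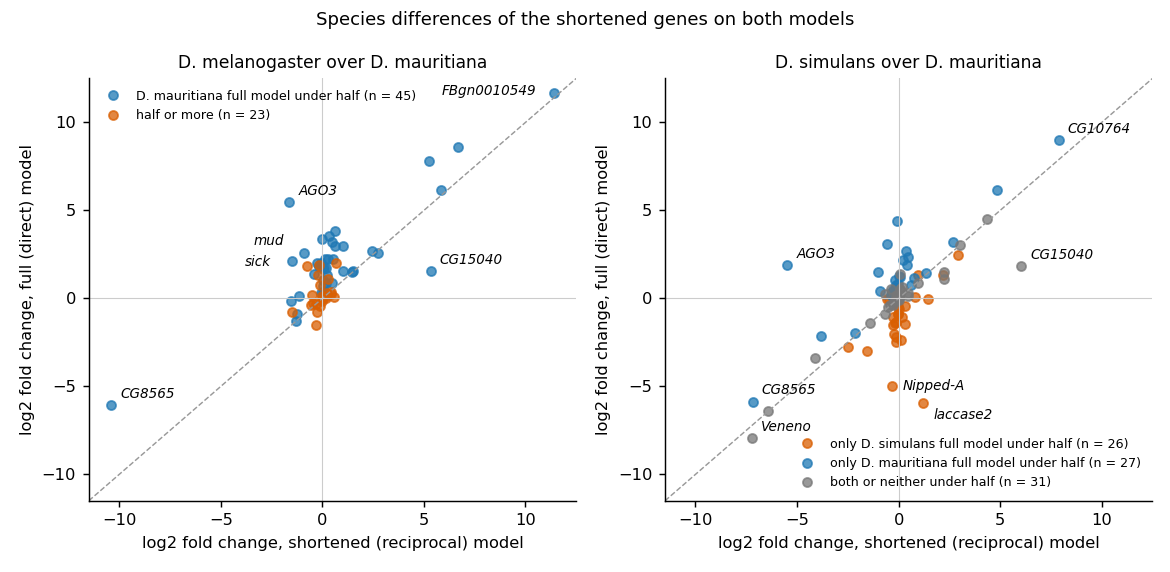
log2-fold change of each member on the reciprocal model (x axis) and on the direct model (y axis), *D. melanogaster* over *D. mauritiana* (68 members) and *D. simulans* over *D. mauritiana* (84 members), coloured by which species had a direct model shorter than 50 % of the *D. melanogaster* one, with the diagonal marking equal values. In the first comparison most points lie above the diagonal, with *AGO3* and *sick* above 0 on the direct and below 0 on the reciprocal model. In the second, members with only a short *D. simulans* model lie mostly below the diagonal and those with only a short *D. mauritiana* model above it.

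Of the 68 members tested on both models, 29 were called on the direct models only, 3 on the reciprocal models only, 7 on both with the same direction and 2 on both with opposite directions, and 27 were called on neither. Among the 29, 27 were higher in *D. melanogaster* and 2 (*CG12708* and *CG18259*) higher in *D. mauritiana*. This split was made for the members only, so it has no share over all genes beside it. A call on 1 model and none on the other does not show that the values differ, so the difference between the models was tested for each gene on the same libraries. With a minimum change of 0.5 on the log2 scale (limma treat, a test chosen after the data were seen), 20 of 68 members had a species difference that moved between the models, against 0.832 % of all genes. The difference was lower on the reciprocal models in 19 of them (0.493 % of all genes) and higher in 1 (0.339 %). The number depended on single libraries: it was 5 without *D. mauritiana* B, 7 without *D. mauritiana* A, 7 without *D. melanogaster* C, 9 without *D. mauritiana* C, 11 without *D. melanogaster* A and 22 without *D. melanogaster* B. For these runs the calls over all genes were not counted. A test of any change at all called 42 of the 68 members but also 81.3 % of all genes, and nothing is read from it.

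*Nipped-B* was the most highly expressed member with such a shift. On the reciprocal model it averaged 36.4 ± 17.3 CPM in *D. melanogaster* and 36.6 ± 22.9 CPM in *D. mauritiana*, and on the direct model 372 ± 102 CPM in *D. melanogaster* and 36.3 ± 22.7 CPM in *D. mauritiana* (SD, n = 3 each). The species differed by a log2-fold change of -0.01 ± 0.50 (SE, adjusted *p* = 0.994) on the reciprocal and 3.36 ± 0.49 (adjusted *p* = 0.0039) on the direct models, and the change between the models was called (limma treat, adjusted *p* = 0.0133). The *D. melanogaster* model had been cut to 2248 of 6234 nt, whereas the *D. mauritiana* direct model already had 2408 nt.

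*futsch* went the same way. It averaged 7.64 ± 2.65 CPM in *D. melanogaster* and 6.01 ± 3.45 CPM in *D. mauritiana* on the reciprocal model, and 63.7 ± 2.33 CPM in *D. melanogaster* and 5.39 ± 3.29 CPM in *D. mauritiana* on the direct one. The log2-fold changes were 0.34 ± 0.44 (edgeR, adjusted *p* = 0.663) and 3.56 ± 0.40 (adjusted *p* = 0.00141), and the change was called (limma treat, adjusted *p* = 0.00227). In *Hsp110*, a chaperone co-factor, the groups averaged 249 ± 24 CPM in *D. melanogaster* and 217 ± 13.2 CPM in *D. mauritiana* on the reciprocal model, and 400 ± 96 CPM in *D. melanogaster* and 215 ± 13 CPM in *D. mauritiana* on the direct model (log2-fold changes 0.19 ± 0.14 and 0.89 ± 0.20). Its direct call (edgeR, adjusted *p* = 0.0217) was lost without *D. mauritiana* A, *D. mauritiana* B, *D. melanogaster* A or *D. melanogaster* C (adjusted *p* up to 0.0951), and its change between the models did not pass (limma treat, adjusted *p* = 1).

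*CG42326* had a direct log2-fold change of 3.81 ± 0.84 (edgeR, adjusted *p* = 0.019, lost without *D. mauritiana* B or *D. melanogaster* C, adjusted *p* up to 0.0797) and a reciprocal one of 0.60 ± 0.49 (adjusted *p* = 0.461), and the change between the models did not pass (limma treat, adjusted *p* = 0.187). *Veneno*, a Tudor domain gene that acts in the piRNA pathway of *Aedes* mosquitoes, had 0.69 ± 0.15 on the direct models (edgeR, adjusted *p* = 0.0187, lost without *D. mauritiana* B or *D. melanogaster* A, adjusted *p* up to 0.0762) and 0.06 ± 0.26 on the reciprocal ones (adjusted *p* = 0.912), and the change did not pass either (limma treat, adjusted *p* = 1). *eater*, a phagocytic receptor of hemocytes that is named here after its values were seen, had 4536, 418 and 3025 direct counts in *D. melanogaster* A, B and C, against 224, 253 and 659 in *D. mauritiana*. Library B, with the lowest hemocyte marker sum (194 CPM), was also the lowest for *eater*. Its direct call (log2-fold change 2.71 ± 0.69, edgeR, adjusted *p* = 0.0322) was lost without *D. mauritiana* A, *D. mauritiana* B, *D. melanogaster* A or *D. melanogaster* C (adjusted *p* up to 0.108), and on the reciprocal model it was not called (2.43 ± 0.81, adjusted *p* = 0.0836).

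In 2 members the direction of the called difference turned. *AGO3*, an Argonaute protein of the piRNA pathway, had 72, 54 and 34 counts in *D. melanogaster* A, B and C on the reciprocal model, against 155, 186 and 186 in *D. mauritiana*. On the direct model it had 223, 168 and 122 counts in *D. melanogaster*, against 1, 5 and 7 in *D. mauritiana*. Each model separated the species without overlap, in opposite directions, and the *D. mauritiana* counts were many times higher on a model of 470 nt than on one of 690 nt. The reciprocal *D. mauritiana* model lies on 3L at 22164027 to 22164540 of the published *D. mauritiana* genome and has 2 exons. The log2-fold change was -1.63 ± 0.40 (edgeR, adjusted *p* = 0.031) on the reciprocal and 5.47 ± 0.55 (adjusted *p* = 0.000895) on the direct models, and the change was called (limma treat, adjusted *p* = 0.00539). The reciprocal call was lost without *D. mauritiana* A, *D. mauritiana* C, *D. melanogaster* A or *D. melanogaster* C (adjusted *p* up to 0.0946).

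*sick*, a gene of axon growth, had 329, 170 and 266 counts in *D. melanogaster* on the reciprocal model, against 536, 919 and 849 in *D. mauritiana*. The direct model gave 1415, 940 and 1269 counts in *D. melanogaster*, against 183, 265 and 432 in *D. mauritiana*. Again the species did not overlap on either model, although the *D. mauritiana* models differed little in length (3261 nt reciprocal, 3348 nt direct). The log2-fold changes were -1.51 ± 0.16 (edgeR, adjusted *p* = 0.00117) and 2.14 ± 0.27 (adjusted *p* = 0.00226), the change was called (limma treat, adjusted *p* = 0.00643), and both calls held when each library was left out in turn. The direct call was not made when the model length was entered in the fit (adjusted *p* = 0.0591).

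*mud*, the NuMA homologue that orients mitotic spindles, showed a change of the same size. It had 2007, 413 and 1283 counts in *D. melanogaster* on the reciprocal model, against 901, 2512 and 3868 in *D. mauritiana*, and 6437, 2770 and 5002 in *D. melanogaster*, against 280, 731 and 1526 in *D. mauritiana*, on the direct one. The species overlapped on the reciprocal and did not overlap on the direct model. Its log2-fold change was -0.92 ± 0.45 (edgeR, adjusted *p* = 0.213) on the reciprocal and 2.61 ± 0.45 (adjusted *p* = 0.00717) on the direct models, and the change was called (limma treat, adjusted *p* = 0.0258). With the model length in the fit the direct value was 1.21 (edgeR, adjusted *p* = 0.096). Unlike in *sick*, the *D. mauritiana* model was longer in the reciprocal (3549 nt) than in the direct set (2916 nt).

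A shorter *D. melanogaster* model therefore did not always come with fewer *D. mauritiana* reads. Among the members with a mean of at least 50 counts on the reciprocal model, 8 had over 10 % more counts on the reciprocal than on the direct model in every *D. mauritiana* library A to C (*AGO3*, *CG8565*, *Rbp6*, *fd3F*, *hiw*, *mud*, *pum* and *sick*), against 1 in the *D. melanogaster* libraries (*fd3F*). In *D. mauritiana* D to F the number was 14, and in *D. simulans* 1 (*Muc68Ca*). The reciprocal *D. mauritiana* model was not shorter in all of them. It had 121.71 % of the direct length in *mud* and, among the 14, 150.74 % in *Msp300*. At the other end, 39 members had the same counts on both models in every *D. mauritiana* library A to C, of which 12 had at least 10 counts. Gains and equal counts were not counted over all genes, so neither is read as particular to the members.

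**Figure D4:**
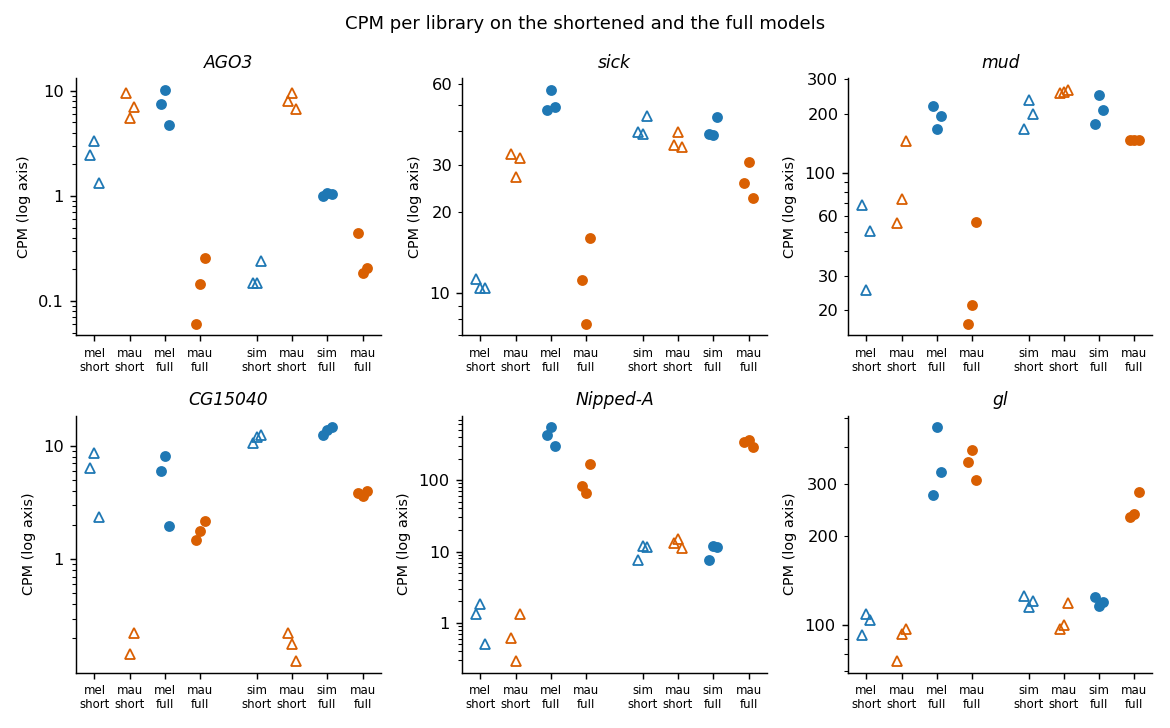
CPM of *AGO3*, *sick*, *mud*, *CG15040*, *Nipped-A* and *gl* in every library on a log axis, with *D. melanogaster* or *D. simulans* in blue and *D. mauritiana* in orange, open triangles for the shortened (reciprocal) and filled circles for the full (direct) model. For *AGO3* the *D. melanogaster* libraries hold 34 to 72 counts on the shortened model, below the 155 to 186 of *D. mauritiana*, and 122 to 223 on the full model, above the 1 to 7 of *D. mauritiana*. *CG15040* had 0 counts in *D. mauritiana* A on the shortened model and that point is not drawn. For *mud* the reciprocal *D. mauritiana* model (3549 nt) is longer than the direct one (2916 nt).

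The 7 members called in the same direction on both models differed by large amounts in some cases. FBgn0010549, which encodes an ABC transporter, had 5971, 4411 and 5125 counts in *D. melanogaster* on the reciprocal model, against 4, 2 and 0 in *D. mauritiana*, and 7775, 5053 and 6509, against the same 4, 2 and 0, on the direct one. The *D. mauritiana* model is one of 1591 nt on 2R, at 3776662 to 3778432 of its published genome, with 4 exons. The fitted log2-fold changes were 11.38 ± 0.52 on the reciprocal (edgeR, adjusted *p* = 5.52e-05) and 11.68 ± 0.50 on the direct models (adjusted *p* = 3.94e-05), values that with so few *D. mauritiana* counts depend on the prior count of the fit.

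*CG8565* was the opposite case. It had 5, 0 and 1 counts in *D. melanogaster* on the reciprocal model, against 2369, 4240 and 2281 in *D. mauritiana*, and 9, 4 and 5, against 229, 557 and 577, on the direct model. Every *D. mauritiana* library was far above every *D. melanogaster* library on both models. The fitted log2-fold change was -10.38 ± 0.51 on the reciprocal (edgeR, adjusted *p* = 5.52e-05) and -6.08 ± 0.33 on the direct models (adjusted *p* = 5.89e-05), again with few counts in one species, and the change between them did not pass (limma treat, adjusted *p* = 0.0875).

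*Strn-Mlck* had similar values on both models. It averaged 30.4 ± 2.73 CPM in *D. melanogaster* and 10.7 ± 3.82 CPM in *D. mauritiana* on the reciprocal model, and 31.3 ± 2.78 CPM in *D. melanogaster* and 10.6 ± 3.78 CPM in *D. mauritiana* on the direct one (SD, n = 3 each). The log2-fold changes were 1.51 ± 0.28 (edgeR, adjusted *p* = 0.0107) and 1.56 ± 0.28 (adjusted *p* = 0.00839). With the model length in the fit the direct value was 0.24 (adjusted *p* = 0.611). The 3 muscle marker genes summed to 1408, 851 and 1470 CPM in *D. melanogaster* A, B and C, against 725, 1008 and 1019 CPM in *D. mauritiana*. Among them *sls*, which encodes Drosophila titin, had 111, 135 and 94.4 CPM in *D. melanogaster*, against 36.9, 45 and 55.5 CPM in *D. mauritiana*. The species overlapped in the others. *Mhc* had 149, 39.8 and 138 CPM in *D. melanogaster*, against 28.4, 46.8 and 6.97 CPM in *D. mauritiana*. *Act57B* had 1148, 676 and 1238 CPM in *D. melanogaster*, against 659, 917 and 957 CPM in *D. mauritiana*. The part of the 3 muscle genes in the *Strn-Mlck* difference was not tested. The other 4 with 2 calls of the same direction, all higher in *D. melanogaster*, were *Muc30E*, *Muc68E*, *CG42694* and *mthl6*. *Muc30E* had 59 to 113 counts in *D. melanogaster* and 12 to 14 in *D. mauritiana* on the reciprocal model, while in the other 3 no *D. mauritiana* library A to C had more than 2 counts on either model.

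A call on the reciprocal models only was made for *CG15040*, *CG7914* and *Rbp6*. *CG15040* had 184, 141 and 60 counts in *D. melanogaster* on the reciprocal model, against 0, 5 and 6 in *D. mauritiana*, and 175, 135 and 51, against 24, 61 and 58, on the direct one. Its *D. melanogaster* counts hardly moved although the model was cut to 1678 of 5688 nt, and its *D. mauritiana* counts were lower on the reciprocal model in every library. The log2-fold change was 5.35 ± 0.81 (edgeR, adjusted *p* = 0.00493) on the reciprocal and 1.56 ± 0.52 (adjusted *p* = 0.0788, DESeq2 0.015) on the direct models, and this was the 1 member whose difference moved upwards (limma treat, adjusted *p* = 0.0352).

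*CG7914* and *Rbp6*, an RNA-binding protein gene, were higher in *D. mauritiana* on the reciprocal models. *CG7914* averaged 3.82 ± 0.955 CPM in *D. melanogaster* and 8.4 ± 1.2 CPM in *D. mauritiana* there, and 9.08 ± 1.98 CPM in *D. melanogaster* and 8.32 ± 1.18 CPM in *D. mauritiana* on the direct model. Its reciprocal log2-fold change was -1.14 ± 0.28 (edgeR, adjusted *p* = 0.0286, up to 0.13 when single libraries were left out), and that of *Rbp6* was -1.49 ± 0.31 (edgeR, adjusted *p* = 0.016, up to 0.0766). The call of *CG7914* was lost without *D. mauritiana* A, *D. mauritiana* B, *D. melanogaster* A or *D. melanogaster* C, and that of *Rbp6* without *D. melanogaster* A or *D. melanogaster* C.

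The members with a *D. mauritiana* direct model that was itself shorter than 50 % of the *D. melanogaster* one (69 members) differed from the rest in the direct comparison. Of 45 tested on the reciprocal models, 7 were higher in *D. melanogaster* and 4 higher in *D. mauritiana*, with a median log2-fold change of 0.13, and of 50 tested on the direct models, 34 were higher in *D. melanogaster* and 1 in *D. mauritiana*, with a median of 1.83. Of the 39 members with a longer *D. mauritiana* model, 23 were tested on the reciprocal models (0 higher in *D. melanogaster* and 1 in *D. mauritiana*, median -0.13) and 28 on the direct ones (5 and 3, median 0.15). Among them, *nocte*, a gene of temperature entrainment of the circadian clock, *gl*, *CG6891* and *Bap111* had direct log2-fold changes between -0.33 and 0.39, none of them called, whereas *Nipped-A* had 2.03 and was called (edgeR, adjusted *p* = 0.0112).

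Across the 68 members tested on both models, the log2-fold change on the direct models followed the log2 ratio of the direct model lengths of the species (Pearson's r = 0.37, Spearman's rho = 0.57), and on the reciprocal models less so (r = 0.17, rho = 0.19). For the 84 members tested between *D. simulans* and *D. mauritiana*, the values were r = 0.55 and rho = 0.61 on the direct and r = 0.02 and rho = -0.04 on the reciprocal models. These are descriptions across genes measured in the same libraries, which are not independent replicates.

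**Figure D5:**
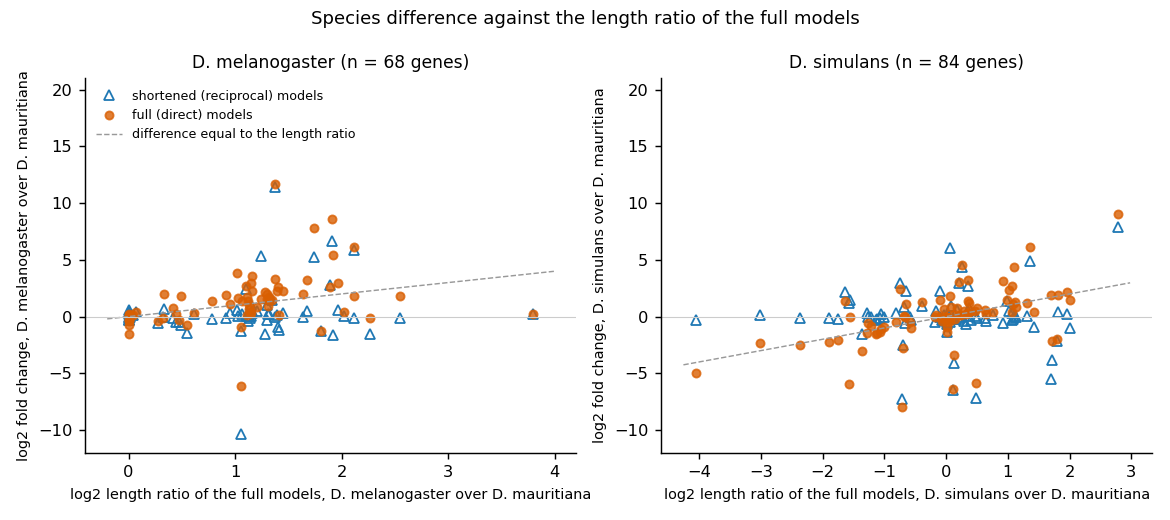
log2-fold change of each member against the log2 ratio of the direct model lengths of the species compared, for the direct and the reciprocal models. The direct values rise with the length ratio (rho = 0.57 for *D. melanogaster* over *D. mauritiana*, 0.61 for *D. simulans* over *D. mauritiana*), while the reciprocal values have rho = 0.19 and -0.04.

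The comparison of *D. simulans* with *D. mauritiana* holds 107 of the members (all but *Muc12Ea*), with 84 tested on both models, 2 on the direct models only and 22 on neither. On the reciprocal models 24 of 84 were called, 11 higher in *D. simulans* and 13 higher in *D. mauritiana*, against 25.1 % of all genes, 12.1 % and 13 % by direction. On the direct models 49 of 86 were called, 25 higher in *D. simulans* and 24 higher in *D. mauritiana*, against 27.5 % of all genes, 13.4 % and 14.1 % by direction. The median log2-fold changes (*D. simulans* over *D. mauritiana*) were -0.05 and 0.17. Unlike in *D. melanogaster*, where the direct model was complete, here either species could have the shorter model, and the members moved in both directions.

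Of the 84, 30 were called on the direct models only (15 in each direction), 7 on the reciprocal models only, 15 on both with the same direction, 2 on both with opposite directions and 30 on neither. Here too the split was made for the members only. The direct comparison followed which species had a model shorter than 50 % of the *D. melanogaster* length. When only the *D. simulans* model was that short (28 members), 4 of 26 tested were higher in *D. simulans* and 4 in *D. mauritiana* on the reciprocal models, and 1 and 18 on the direct models (medians -0.03 and -1.05). When only the *D. mauritiana* model was (38 members), 3 and 5 of 27 were called on the reciprocal and 16 and 2 of 28 on the direct models (medians -0.06 and 1.25). When both were short (30 members) or neither was (11 members), the medians were -0.07 and 0.01 on the reciprocal and 0.16 and 0.13 on the direct models. The species difference moved by more than 0.5 between the models in 34 of 84 members (limma treat, chosen after the data were seen), against 1.59 % of all genes. It was lower on the reciprocal models in 17 (0.802 %) and higher in 17 (0.793 %). A test of any change called 58 of 84, against 8.12 %.

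Among the 8 members of highest expression *Nipped-A* had the largest such shift. On the reciprocal model it had 932, 1780 and 1890 counts in *D. simulans* A, B and C, against 1637, 2159 and 1787 in *D. mauritiana* D, E and F. The direct models gave the same *D. simulans* counts, against 42286, 53480 and 46329 in *D. mauritiana*, where the model had 9048 nt and that of *D. simulans* 545 nt. The log2-fold change was -0.33 ± 0.20 (edgeR, adjusted *p* = 0.27) on the reciprocal and -5.0 ± 0.21 (adjusted *p* = 1.42e-05) on the direct models. In the *D. melanogaster* comparison the same gene had 39, 30 and 13 reciprocal counts in *D. melanogaster*, against 10, 10 and 36 in *D. mauritiana*, and 12709, 9010 and 7801 direct counts, against 1341, 2247 and 4482. There the species overlapped on the reciprocal model (log2-fold change 0.69 ± 0.69) and not on the direct one (2.03 ± 0.39, edgeR, adjusted *p* = 0.0112). Its *D. mauritiana* remnant lies on 2R at 236383 to 238168.

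*gl* stood for the members that were cut in *D. simulans* only. It averaged 121 ± 5 CPM in *D. simulans* and 106 ± 11.8 CPM in *D. mauritiana* on the reciprocal model, and 120 ± 4.31 CPM in *D. simulans* and 251 ± 28 CPM in *D. mauritiana* on the direct one (SD, n = 3 each). Its log2-fold change was 0.19 ± 0.09 (edgeR, adjusted *p* = 0.158) on the reciprocal and -1.06 ± 0.09 (adjusted *p* = 0.000271) on the direct models, and -0.01 (adjusted *p* = 0.927) on the direct models with the length in the fit. Between *D. melanogaster* and *D. mauritiana*, where both direct models had 2040 nt, *gl* had 2693, 1778 and 2646 reciprocal counts in *D. melanogaster*, against 1232, 3180 and 2603 in *D. mauritiana*, and 8128, 7716 and 8482 direct counts, against 5833, 13427 and 8358. The species overlapped on both models there (log2-fold changes 0.20 ± 0.15 and 0.02 ± 0.22).

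*nocte*, *CG6891* and *Bap111* had the same pattern. In *nocte* the log2-fold change (*D. simulans* over *D. mauritiana*) was -0.14 ± 0.09 on the reciprocal and -1.34 ± 0.09 on the direct models (edgeR, adjusted *p* = 0.318 and 0.00012). In *CG6891* it was 0.14 ± 0.13 and -2.36 ± 0.11 (edgeR, adjusted *p* = 0.478 and 2.38e-05), and in *Bap111* -0.02 ± 0.06 and -0.89 ± 0.06 (edgeR, adjusted *p* = 0.86 and 0.000113). *Hsp110*, with a *D. mauritiana* model of 1014 nt and a complete *D. simulans* model of 2511 nt, had 0.06 ± 0.06 and 1.23 ± 0.06 (edgeR, adjusted *p* = 0.456 and 2.38e-05). *Msp300* was not called on either model (0.11 ± 0.17 and 0.44 ± 0.17, edgeR, adjusted *p* = 0.663 and 0.0988). *laccase2*, named after its values were seen, had 1.20 ± 0.40 and -5.95 ± 0.22 (edgeR, adjusted *p* = 0.0672 and 8.88e-06).

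*AGO3* again turned. In *D. simulans* it had 18, 22 and 39 counts on the reciprocal model, against 996, 1374 and 1059 in *D. mauritiana*, and 122, 157 and 168, against 55, 27 and 33, on the direct one. The log2-fold change was -5.48 ± 0.30 (edgeR, adjusted *p* = 5.33e-05) on the reciprocal and 1.89 ± 0.40 (adjusted *p* = 0.013) on the direct models, and 0.19 (adjusted *p* = 0.752) on the direct models with the length in the fit. The other called reversal was *mei-218*, a gene of meiotic crossing over, with 0.34 ± 0.08 (edgeR, adjusted *p* = 0.0245) and -0.45 ± 0.08 (adjusted *p* = 0.00635), of which the reciprocal call held without *D. simulans* A only and was lost without any other library (adjusted *p* up to 0.0865). *sick* and *mud* had smaller differences here. In *sick* they were 0.17 ± 0.09 on the reciprocal and 0.64 ± 0.12 on the direct models (edgeR, adjusted *p* = 0.204 and 0.00911), and in *mud* -0.37 ± 0.12 and 0.53 ± 0.12 (edgeR, adjusted *p* = 0.0576 and 0.0165, the last lost without *D. mauritiana* D or *D. simulans* C, up to 0.0591). *futsch* had -0.14 ± 0.18 and 0.60 ± 0.18 (edgeR, adjusted *p* = 0.607 and 0.0449, the last lost without any 1 library but *D. simulans* A, up to 0.108), and *Nipped-B* 0.01 ± 0.19 on both.

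The largest *D. simulans* differences on the reciprocal models had the same direction on the direct ones. *Veneno* had 15, 21 and 37 counts in *D. simulans* on both models, against 3170, 3162 and 4436 on the reciprocal and 5173 to 7169 on the direct model in *D. mauritiana* (log2-fold changes -7.23 ± 0.27 and -7.96 ± 0.24, edgeR, adjusted *p* = 1.31e-05 and 3.26e-06). *CG10764* had 823 to 1221 reciprocal counts in *D. simulans*, against 3 to 6 in *D. mauritiana* (7.88 ± 0.28 on the reciprocal and 9.01 ± 0.30 on the direct models, edgeR, adjusted *p* = 1.13e-05 and 5.61e-06). *CG8565* had 22, 81 and 60 reciprocal counts in *D. simulans*, against 6511, 7377 and 9159 in *D. mauritiana* (-7.18 ± 0.35 and -5.86 ± 0.38, edgeR, adjusted *p* = 3.6e-05 and 9.69e-05). In each of these the species lay far apart in every library.

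*Muc11A* had 7 to 32 reciprocal counts in *D. simulans* and 699 to 2065 in *D. mauritiana* (-6.45 ± 0.64 and -6.40 ± 0.65, edgeR, adjusted *p* = 0.000687 and 0.000623). *CG15040* had 1291, 1763 and 1993 reciprocal counts in *D. simulans*, against 28, 26 and 20 in *D. mauritiana* (6.03 ± 0.26 and 1.83 ± 0.13, edgeR, adjusted *p* = 2.11e-05 and 0.00014). It was therefore lower in *D. mauritiana* on the reciprocal models in both comparisons, each with its own *D. mauritiana* libraries. Both used the same reciprocal *D. mauritiana* model, however, so they are not independent in that respect. That model kept 6.18 ± 5.46 % of the direct counts in *D. mauritiana* A to C and 4.66 ± 1.42 % in D to F (SD, n = 3 each). FBgn0010549 had 112, 135 and 161 reciprocal counts in *D. simulans*, against 8, 2 and 3 in *D. mauritiana* (4.87 ± 0.56 and 6.16 ± 0.55, edgeR, adjusted *p* = 0.00121 and 0.000378).

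*Ubx*, the 1 Hox gene among the members, was near the limit of detection in these discs, with 2 to 9 reciprocal counts in *D. simulans* and 19 to 49 in *D. mauritiana* (-2.50 ± 0.69 and -2.78 ± 0.74, edgeR, adjusted *p* = 0.0373 and 0.0315). Both calls were lost without *D. mauritiana* D, *D. mauritiana* F, *D. simulans* B or *D. simulans* C (adjusted *p* up to 0.112), and the reciprocal call was lost without the filter on low counts (adjusted *p* = 0.0502). Of the 8 mucins, 5 could be tested on the reciprocal and 6 on the direct models between *D. simulans* and *D. mauritiana*, with 2 higher in each species on either model. Of all genes tested, 12.1 and 13 % were called higher in *D. simulans* and in *D. mauritiana* on the reciprocal models, and 13.4 and 14.1 % on the direct ones. Between *D. melanogaster* and *D. mauritiana* 6 and 7 could be tested, with 2 and 3 higher in *D. melanogaster* and 0 higher in *D. mauritiana*, against 8.06 and 9.12 % of all genes tested for *D. melanogaster* and 10.1 and 10.6 % for *D. mauritiana* on the reciprocal and direct models. *Muc96D*, named after its values were seen, had 224411 to 388614 reciprocal counts in *D. simulans*, against 739, 115518 and 1018 in *D. mauritiana* D, E and F and 79 to 85 in *D. melanogaster*. It was not called (edgeR, adjusted *p* = 0.243), with *D. mauritiana* E far above D and F.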

How the data were processed

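RNA-seq reads of 12 eye-antennal disc libraries were mapped by the authors with Bowtie2 (version not given in the sources used here) to coding sequence models of the same species, without UTRs, and counted per transcript with SAMtools 0.1.19. The deposited tables hold these raw counts and the length of each model in nucleotides. Models were made with Exonerate, with introns of at most 20000 nt. Reads with low-quality bases were not trimmed, and strand was not used. The columns with counts on the published models served for the model lengths only.

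Counts were tested 3 against 3 libraries per table with edgeR 4.0.16 (quasi-likelihood, TMM, filterByExpr, Benjamini-Hochberg over all genes tested, adjusted p below 0.05) in R 4.3.3. The log2-fold change is *D. melanogaster* or *D. simulans* over *D. mauritiana*. Its SE was taken as the absolute log2-fold change divided by the square root of the F statistic of the edgeR test. It is approximate, also where a species has few counts. The change between models was tested with limma 3.58.1 on the per-library difference of log2 CPM (prior count 2), and with a minimum change of 0.5 as an alternative chosen after the data were seen. On simulated data with the *D. melanogaster* comparison's means and depths (9807 genes), the test of any change called 27.6 % of unchanged genes and the one with a minimum change 0 %. For the *D. simulans* comparison (11115 genes) these were 8.8 % and 0 %. The simulation gave each gene 1 fixed share of counts kept per species. In the data this share varied between libraries, for *nocte* from 12.74 to 31.95 % in *D. mauritiana* A to C. The simulated rates therefore may not hold for the data. DESeq2 1.42.0, other filters and normalizations, the model length as an offset, a replicate block and leaving out each library were the alternatives.

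Named genes were the 8 members with most direct counts, the 8 with the largest change of the *D. melanogaster* difference, up to 6 and 4 called members with the largest reciprocal differences in the comparisons of *D. melanogaster* and *D. simulans*, the members at the extremes of length kept, and those in lists of eye and Hox genes. The members and lists were chosen with earlier results of these data known. Chromosome arms and exon structure came from a later annotation than the study's, so no coordinates were taken from it. Protein and promoter sequences were not used here. Same-lettered libraries did not deviate together (correlations -0.237, 0.202 and 0.155), so letters were not treated as pairs.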

Additional observations from a re-analysis of the deposited data

Results flagged for a closer look

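Among the members whose change between the models was called with the minimum change of 0.5, counts of 6 changed by over 10 % in opposite directions in every library of the species compared, falling in *D. melanogaster* or *D. simulans* and gaining in *D. mauritiana* when the reciprocal model replaced the direct one. For *AGO3* the *D. melanogaster* over *D. mauritiana* log2-fold change moved by -6.67 (limma treat, adjusted p = 0.00539, n = 3 against 3 libraries, all 6 in these directions). In the *D. simulans* over *D. mauritiana* comparison, which has its own *D. mauritiana* libraries but the same *D. mauritiana* models, it moved by -7.35 (limma treat, adjusted p = 0.00675). For *sick* the *D. melanogaster* over *D. mauritiana* value moved by -3.69 (adjusted p = 0.00643) for *mud* by -3.72 (adjusted p = 0.0258) and for *pum* by -2.40 (adjusted p = 0.0347). In the *D. simulans* comparison it moved by -4.41 for *fd3F*, by -2.50 for *CG32237* (adjusted p = 0.0241) and by -0.90 for *pum* (adjusted p = 0.0411). Such opposite changes were looked for among the members only, with no share over all genes. The cause was not tested.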

How the results depend on the processing

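Of 83 alternatives compared over the 7 main results, 70 kept the value within the limits set, 10 gave fewer calls by more than 1.5 times and 3 moved the median. The values compared were counts of calls and medians, so the directions of single members were not compared. When a library was left out, calls were counted for the members only and not over all genes. In the *D. melanogaster* comparison, the 43 members called on the direct models became 27 with the model length in the fit and 27 among members below 0.4 times the direct length (33 to 45 when leaving out each library). DESeq2 called 51, against 2600 of 11982 genes in all. The 12 called on the reciprocal models became 6 with at least 10 counts in every library, against 1202 of 8550 genes in all (9 to 15 when leaving out each library). On these models DESeq2 called 16, against 2421 of 11917 genes in all. The test of any change between the models called 42 members, against 7909 of 9732 genes in all, and nothing is read from it. These 42 became 20 with the minimum change of 0.5 and 18 to 48 when leaving out each library, with 21 without *D. mauritiana* A and 18 without *D. mauritiana* B. In the *D. simulans* comparison, the 49 called on the direct models became 28 among members below 0.4 times the direct length (42 to 51 when leaving out each library), the 24 on the reciprocal models became 15 to 23 when leaving out each library (15 without *D. mauritiana* D), and the 58 that moved became 28 below 0.4 times the length and 34 with the minimum change (54 to 62 when leaving out each library). DESeq2 called 57 and 30 members there on the direct and reciprocal models, against 3811 of 11615 and 3591 of 11858 genes in all. Stricter length and count limits test fewer members by construction. For the other changes the cause was not tested. The median of the share of counts kept over the share of length kept, 1.183, was 1.2992 with at least 10 counts per library, 1.0162 with at least 200 and 1.439 below 0.4 times the direct length (1.1672 to 1.2018 when leaving out each library).

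With the replicate letter as a block, 44, 14 and 41 members were called in *D. melanogaster* on the direct models, on the reciprocal models and for the change between them. Over all genes the counts were 1602 of 9825, 1478 of 9767 and 7776 of 9732. No paired analysis was possible for *D. simulans* because its libraries A to C and the *D. mauritiana* libraries D to F share no letters. The 30 members not tested on either model in *D. melanogaster*, *Ubx* among them, had few counts, and low expression and limited depth were not told apart.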
